A study of Mus musculus with 15 samples.

Results

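JS1 is a mouse hepatic stellate cell line, and transcripts of its untreated cells with an empty vector are held in the 4 libraries described here. They were chosen by their titles as the untreated empty-vector columns of the baseline expression table, and they are 4 of the 15 libraries of the series. The labels give the genotype of every JS1 library as TLR4-/- with WT TLR4 expressed in the cells, so a deleted and a restored Tlr4 are shared by all groups. The 4 libraries carry the control vector without the XPO4 insert and are numbered 0 to 3. The other 11 libraries carry the XPO4 construct, received TGFβ, or both, and enter no value below. The passage number, the culture conditions and whether the line is 1 clone are not given in the labels, and the libraries are not stated to come from separate cultures, so their SD may be technical. The question addressed is which genes the untreated empty-vector cells transcribe, and no contrast between groups was made or tested. No library of the series is labelled as cells without a vector, so any effect of the vector on these levels was not tested.

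Hepatic stellate cells lie between hepatocytes and the sinusoidal endothelium. In the healthy liver they store vitamin A as retinyl esters in lipid droplets. After injury they turn into myofibroblasts, which contract, divide and deposit collagen-rich scar matrix under the influence of TGFβ and PDGF. They also sense microbial products: TLR4, with its partners MD-2 and CD14, binds lipopolysaccharide and signals through MyD88 to NF-kB and through TRIF to interferon regulatory factors. Type I interferons act through the receptor pair IFNAR1 and IFNAR2, the kinases JAK1 and TYK2 and a complex that holds STAT2 and IRF9 and binds the interferon-stimulated response element (ISRE) upstream of antiviral genes. Stellate lines are kept in culture on plastic and divide without limit, unlike the cells in the liver.

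Levels are given as FPKM (fragments per kilobase of transcript and per unit of mapped fragments), which corrects for transcript length and allows levels to be compared between genes. Of 38277 genes in the table, 11877 (31.0%) averaged 1 FPKM or more over the 4 libraries, 5661 were above 0 in some library with a lower mean, and 20739 were listed at 0 in all 4, so that the median over all genes was 0 FPKM. The gene just inside this threshold averaged 1.00011 FPKM and the gene just outside averaged 0.99875 FPKM, so the line at 1 FPKM divides a continuum. Among genes that GENCODE M21 calls protein coding, 10762 of 21172 (50.8%) reached it. A mean of 10 FPKM or more was reached by 7081 genes, 100 FPKM by 871 genes and 1000 FPKM by 39 genes. The files hold no counts, so the depth is unknown and no counting interval can be given.

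The 4 libraries were close to each other. Pearson's r of log2(FPKM + 1) across genes lay between 0.989 and 0.991 for the 6 pairs, a description in which genes are not independent replicates. The median coefficient of variation was 7.84% for genes of at least 100 FPKM, 10.3% between 10 and 100 FPKM and 20.4% between 1 and 10 FPKM, so a level near 1 FPKM is the least precise. Library 2 stood apart from the others in a way that went with transcript length: its median log2 ratio to the mean of the other libraries was -0.12 among the shortest of 3 equal classes of genes by exon length, 0.00 in the middle class and 0.10 among the longest. It was the lowest of the 4 in 64 of the 100 most abundant genes. Mitochondrially encoded transcripts made up 4.41% and 4.73% of the summed FPKM in libraries 0 and 2, and 3.43% and 3.34% in libraries 1 and 3.

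A listed 0 cannot be read as absence in this table. Of 82 cytosolic ribosomal protein genes, most of which every dividing cell needs, 76 reached 1 FPKM, but Rpl38, Rps27 and Rpl22l1 were listed at 0 in all 4 libraries. Rps12 was listed at 0.997, 1.86, 0 and 0 FPKM and Rpl36 at 1.54, 0, 0 and 0 FPKM. The highest member, Rpl41, averaged 4604 ± 728 FPKM (SD, n = 4). Of the 13 mitochondrially encoded proteins, 7 averaged 675 to 6344 FPKM, while mt-Co2, mt-Atp6, mt-Co3, mt-Nd3 and mt-Nd4l averaged 5.04 to 13.5 FPKM. In those 5 genes, 98.0% to 100% of the 50-base windows of the transcript also occur in a transcript of another gene. The other mitochondrial genes had 0% to 62.2% of their windows shared. They include mt-Atp8, a subunit of the ATP synthase, which was listed at 38.2, 0, 0 and 0 FPKM with 0% shared, so a low level did not always go with shared windows. Nor did a high share always go with a low level, since the ribosomal gene Rps2 had 71.3% of its windows shared and averaged 3639.6 FPKM. Below, a gene is therefore called listed at 0 and never absent.

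**Figure D1:**
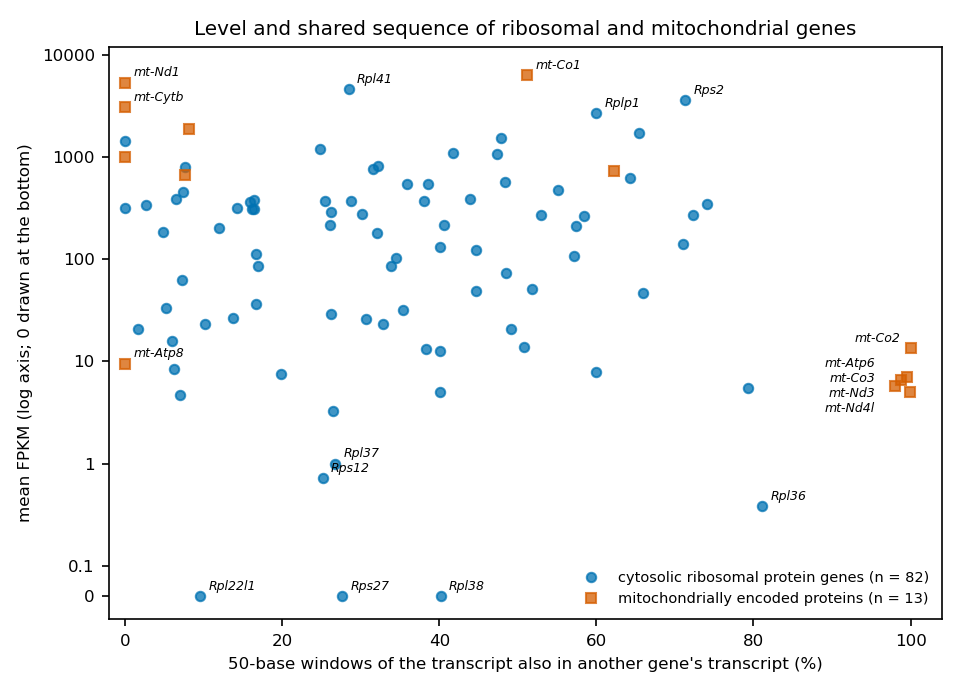
Mean FPKM over the 4 libraries (log axis, with 0 drawn at the bottom) against the percent of 50-base transcript windows also found in another gene, for 82 cytosolic ribosomal protein genes (circles) and 13 mitochondrially encoded proteins (squares). The 5 mitochondrial genes at 98.0% to 100% shared windows lie at 5.04 to 13.5 FPKM, and 3 ribosomal genes lie at 0 with 9.62% to 40.3% shared.

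The most abundant transcripts came from translation, energy metabolism, the cytoskeleton and iron storage, together with 2 genes of the interferon response. Eef1a1, the elongation factor that brings aminoacyl-tRNA to the ribosome (mm10 chr9:78478449-78489151), measured 7397, 6574, 7781 and 7563 FPKM in libraries 0 to 3 and was the highest gene. It was followed by mt-Co1, a cytochrome oxidase subunit, at 6344 ± 1028 FPKM (SD, n = 4) and by mt-Nd1, a complex I subunit, at 5373 ± 953 FPKM (SD, n = 4). Both mitochondrial genes were high in libraries 0 and 2 and low in libraries 1 and 3. Ftl1 and Fth1, the ferritin chains that store iron, averaged 3710.4 ± 446 and 1608 ± 47.1 FPKM (SD, n = 4 each). Their ranks were 6 and 20.

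Cytoskeletal genes filled 5 of the 20 highest places. The nonmuscle actins Actb and Actg1 averaged 2925 ± 186 and 2645 ± 262 FPKM, and the intermediate filament gene Vim 2446 ± 360.0 FPKM (SD, n = 4 each). Tmsb4x, which sequesters actin monomers, averaged 2135 ± 49.3 FPKM and the actin-severing gene Cfl1 1882 ± 171 FPKM (SD, n = 4 each). Pfn1, another actin monomer binder, stood just outside the 20 at rank 21. These genes are abundant in most cultured mesenchymal cells. The chaperone Hsp90ab1 averaged 1812 ± 84.9 FPKM (SD, n = 4). Further places were held by Rpl41, Rps2, Rplp1, mt-Cytb, mt-Nd2 and Gm10076, a noncoding entry of GENCODE M21 that averaged 3954 ± 262 FPKM (SD, n = 4). Some of the 20 share much of their sequence with other genes, so their levels and places are uncertain. The share of 50-base windows also found in another gene was 78.9% for Ftl1, 69.9% for Gm10076, 60.0% for Rplp1, 59.2% for Eef1a1, 56.7% for Actg1 and 51.1% for mt-Co1, in addition to Rps2 above.

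Cxcl10 and Ifitm3 were the immune genes among the 20. Cxcl10, the chemokine that attracts T cells through CXCR3, measured 2134, 2024, 2032 and 1992 FPKM in libraries 0 to 3 and ranked 14. Ifitm3, a membrane protein that blocks entry of enveloped viruses, measured 1752, 1784, 1534 and 1768 FPKM and ranked 19. Cxcl10 was even across the libraries, with a coefficient of variation of 3.01%, and Ifitm3 was lowest in library 2. For none of the 19 neighbouring pairs among the 20 genes were the 4 libraries of one gene all above those of the next, so the order of neighbours is not resolved by the spread. In bulk RNA, fewer cells with a transcript and less of it per cell cannot be told apart.

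**Figure D2:**
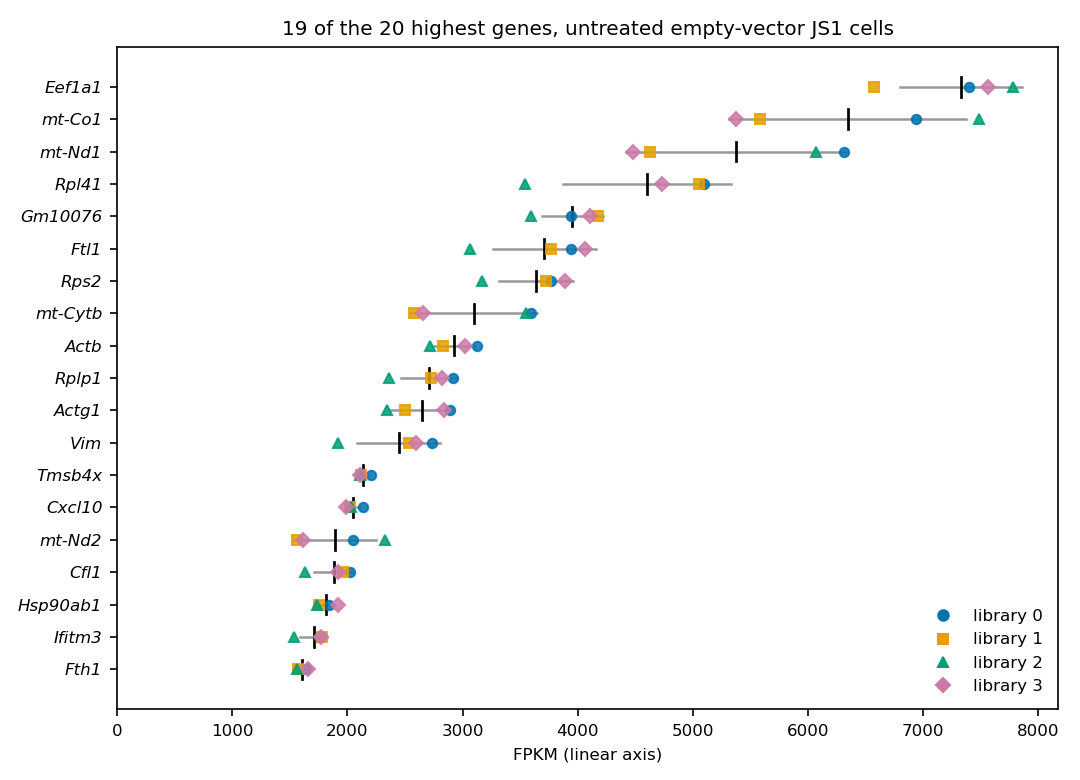
FPKM of 19 of the 20 genes with the highest mean (linear axis from 0), with 1 point per library, the mean as a vertical mark and 1 SD to either side as a horizontal line. Every gene shown overlaps the next one shown, and the chemokine gene Cxcl10 sits at rank 14 between Tmsb4x and mt-Nd2.

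The transcriptome was moderately concentrated. The 10 highest genes held 8.77% of the summed FPKM, the 20 highest 12.8%, the 100 highest 25.8% and the 1000 highest 57.5%. Among the 100 highest, 16 encode cytosolic ribosomal proteins, 7 are mitochondrially encoded and 19 belong to the gene lists described below. Their median exon length was 2323 bases, against 4529 bases for all protein-coding genes of at least 1 FPKM. Others of the 100 that no list holds include the growth factor binder Igfbp4 at 660.1 ± 16.6 FPKM, the secreted glycoprotein Lgals3bp at 622 ± 54.6 FPKM and the cytokine Mif at 932 ± 111 FPKM (SD, n = 4 each). The metabolic genes Gapdh, Pkm and Ldha, which act in glycolysis, averaged 1559, 1376 and 668 FPKM.

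The listed gene groups differed widely in how many members the line transcribed. Over all 36 lists, 399 of 620 measured genes (64.4%) reached 1 FPKM, beside 31.0% of all genes and 50.8% of all protein-coding genes. All 24 cell cycle genes, all 19 collagen-processing genes and all 14 genes of the NF-kB list reached it, and 38 of 40 interferon-stimulated effectors did. At the other end, 0 of 8 hepatocyte genes, 0 of 8 lymphocyte and neutrophil genes and 1 of 16 chemokine receptors reached it. The lists were made of genes of interest, so their shares are descriptions of this line and not of an enrichment.

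**Figure D3:**
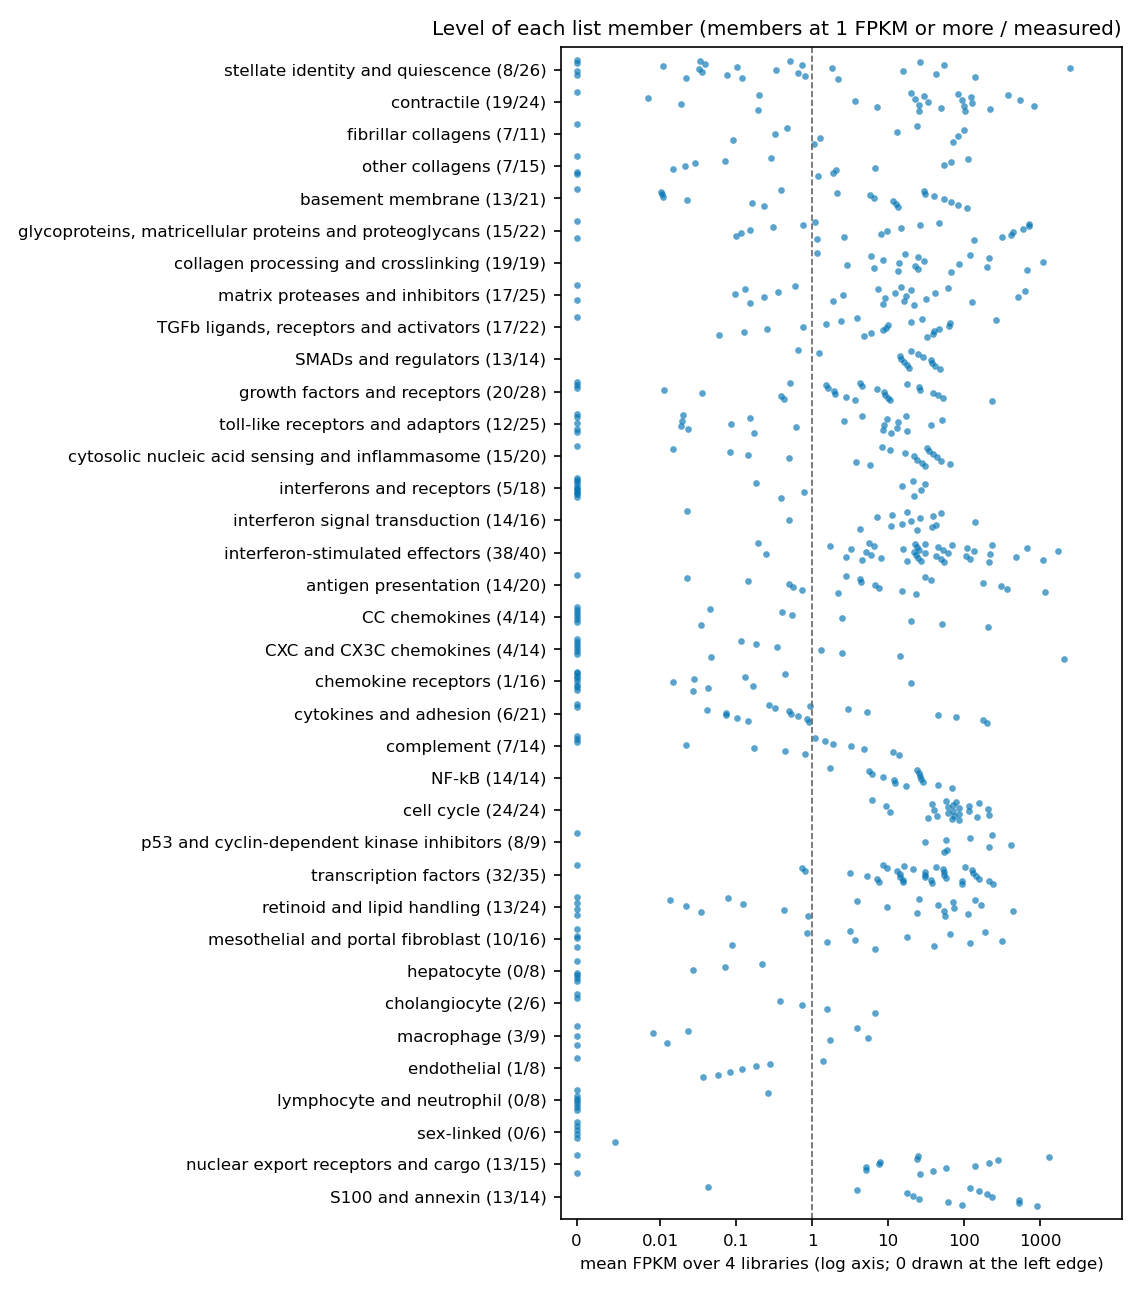
Mean FPKM over the 4 libraries (log axis, with 0 drawn at the left edge) of every measured member of each gene list, with 1 point per gene and a dashed line at 1 FPKM. Beside each name stand the members at 1 FPKM or more and the members measured. All points of the cell cycle, collagen-processing and NF-kB lists lie right of the line, and none of the hepatocyte list does.

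Many of the stellate identity genes were low in this line. Of 26 measured, 8 (30.8%) reached 1 FPKM, beside 31.0% of all genes in the table and 50.8% of all protein-coding genes. The median of the 26 was 0.229 FPKM, and 4 of them were listed at 0 in all libraries. Lrat, the enzyme that esterifies retinol for storage, and Pparg, a lipid regulator of the quiescent state, were listed at 0 in all 4 libraries, as was the transcription factor Tcf21. These 3 genes share no 50-base window with another gene. The glial filament gene Gfap was listed at 0.0979, 0, 0 and 0.208 FPKM. Reln, Ngfr and Hgf, also used as stellate markers, reached at most 0.0829, 0.0749 and 0.141 FPKM in any library.

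Some stellate and mesenchymal genes were well transcribed. Vim, which marks mesenchymal cells in general, measured 2735, 2535, 1921 and 2595 FPKM in libraries 0 to 3, lowest in library 2. Hand2 and Gata4, transcription factors of the stellate lineage in mouse liver, measured 44.3, 43.9, 34.8 and 49.0 FPKM and 13, 14.6, 16.5 and 18.4 FPKM. Plin2, which coats lipid droplets, averaged 139 ± 19.6 FPKM, Ecm1 54.3 ± 10.8 FPKM and decorin, Dcn, 26.4 ± 4.25 FPKM (SD, n = 4 each). Desmin, Des, the muscle-type filament long used to mark rodent stellate cells, measured only 3.26, 1.27, 1.95 and 2.30 FPKM, and nestin, Nes, 2.21, 1.56, 2.05 and 1.48 FPKM. Just below the threshold lay Lhx2, a regulator of stellate quiescence, at 0.799 ± 0.458 FPKM (SD, n = 4), with library 2 alone above 1. Of the stellate list, Vim, Plin2, Ecm1, Hand2, Dcn and Gata4 thus reached 10 FPKM. Des was low, and Lrat, Gfap, Reln, Cygb and Pdgfrb were below 1 FPKM. Whether these levels identify a stellate cell was not tested.

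The genes of both PDGF receptors differed in level. Pdgfrb, the chief PDGF receptor of activated stellate cells, measured 0.133, 0.565, 0.561 and 0.767 FPKM, while Pdgfra measured 16.9, 16.4, 19.4 and 18.0 FPKM. Every library had Pdgfra far above Pdgfrb. Bambi, a decoy receptor that restrains TGFβ signalling in quiescent stellate cells, averaged 0.658 ± 0.0852 FPKM (SD, n = 4).

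**Figure D4:**
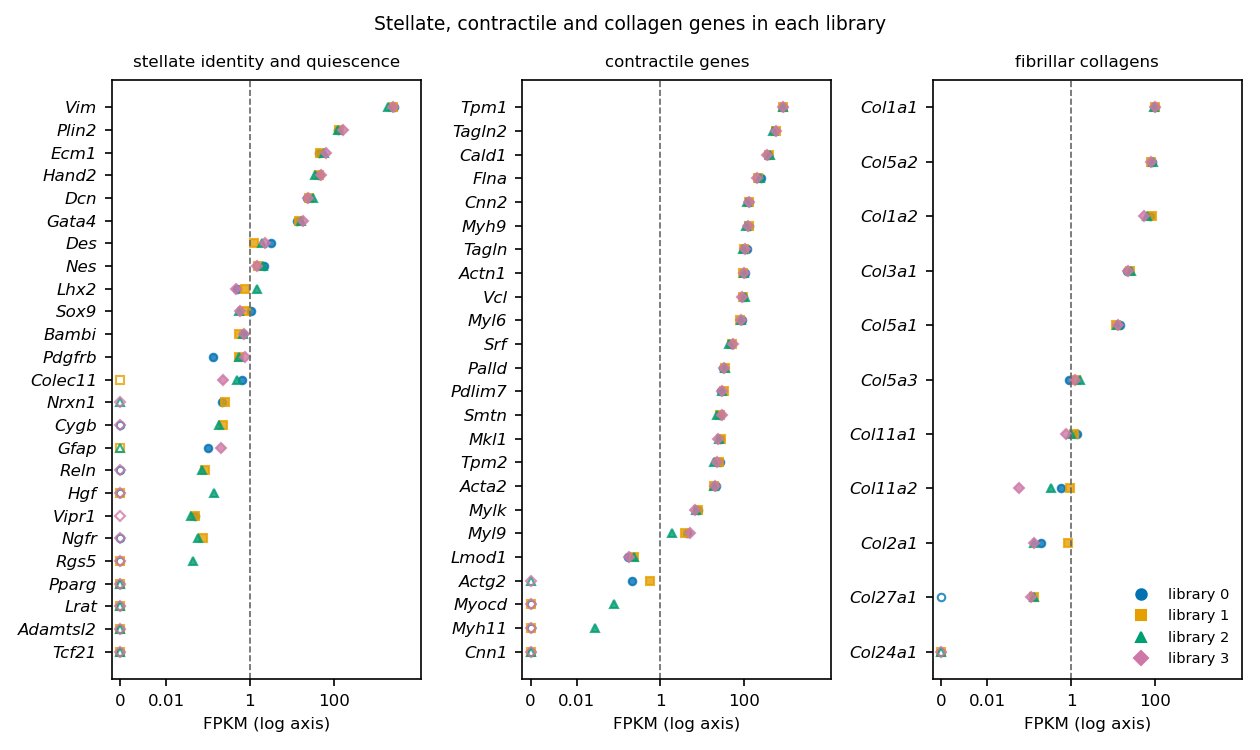
FPKM in each library (log axis, with 0 drawn at the left edge) for the stellate identity, contractile and fibrillar collagen lists, each ordered by mean, with a dashed line at 1 FPKM; 1 stellate identity gene is not shown. Vim stands at 1921 FPKM or more in every library, Acta2 averages 19.8 and Col1a1 99.1 FPKM, while Lrat, Pparg, Tcf21 and Cnn1 lie at 0 in every library.

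Myofibroblast genes were present at moderate levels. Acta2, the smooth muscle α-actin that defines the myofibroblast (mm10 chr19:34241090-34255590), measured 21.4, 18.8, 18.9 and 20 FPKM and ranked 4801. That is far below Actb and Actg1 and close to the median of 14.2 FPKM for all genes of at least 1 FPKM. Tagln, an actin-binding protein of smooth muscle, measured 114, 96.4, 90.9 and 107 FPKM, highest in library 0 and lowest in library 2. Of 24 contractile genes, 19 reached 1 FPKM with a median of 31.6 FPKM. Tpm1 led them at 836 ± 15.9 FPKM, followed by Tagln2 at 541 ± 41.5 FPKM and caldesmon, Cald1, at 377 ± 31.8 FPKM (SD, n = 4 each). These leaders act in stress fibres of nonmuscle cells as well as in muscle.

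Several contractile genes of smooth muscle lay at the bottom of that list, while Tagln and Acta2 stood higher. The myosin light chain gene Myl9 measured 4.24, 3.76, 1.87 and 5.07 FPKM, lowest in library 2, and the kinase gene Mylk averaged 7.25 ± 0.538 FPKM (SD, n = 4). Smooth muscle myosin, Myh11, reached at most 0.0274 FPKM in any library, the smooth muscle coactivator Myocd at most 0.0761 FPKM, and Cnn1 was listed at 0 in all libraries. The serum response factor gene Srf and its coactivator Mkl1, which drive actin genes in many cell types, averaged 49.2 ± 4.47 and 25.9 ± 2.17 FPKM (SD, n = 4 each).

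Collagen I, the main collagen of scar, was transcribed from both of its genes. Col1a1 (mm10 chr11:94936224-94953042) measured 101, 99.3, 95.2 and 101 FPKM and ranked 877, and Col1a2 measured 77.9, 86.9, 66.4 and 53.9 FPKM. Col1a1 was nearly level across libraries, while Col1a2 was spread more widely and lowest in library 3. Of 11 fibrillar collagen genes, 7 reached 1 FPKM, with Col5a2 at 83.5 ± 4.24, Col3a1 at 24.3 ± 2.14 and Col5a1 at 13.1 ± 1.26 FPKM (SD, n = 4 each). Col11a1 stood just above the threshold at 1.08 ± 0.257 FPKM, and Col11a2 just below it at 0.473 ± 0.371 FPKM (SD, n = 4 each). The cartilage collagen Col2a1 averaged 0.324 FPKM, and Col24a1 was listed at 0.

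Of 15 other collagens outside the basement membrane, 7 (46.7%) reached 1 FPKM, beside 50.8% of all protein-coding genes. Col8a1, a short-chain collagen, had the highest mean of the collagen genes in the lists. It stood at 104, 116, 131 and 100.5 FPKM in libraries 0 to 3, and its libraries overlapped those of Col1a1. Collagen VI is a trimer with chains from Col6a1 and Col6a2, which measured 66.0, 67.3, 64.8 and 69 FPKM and 56.0, 57.0, 48.8 and 56.9 FPKM. The gene of its usual remaining chain, Col6a3, was listed at 0.0483, 0, 0.0374 and 0 FPKM, and the alternatives Col6a5 and Col6a6 were listed at 0. Both transcribed chains were thus at a like level while each of the other 3 chains in the list was at or near 0. Collagen VI genes outside the list were not examined.

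Of 21 basement membrane genes, 13 (61.9%) reached 1 FPKM, beside 64.4% of all list members and 50.8% of all protein-coding genes. The laminin gamma chain gene Lamc1 averaged 109.9 ± 6.20 FPKM, the collagen IV genes Col4a1 and Col4a2 84.3 ± 4.05 and 67.1 ± 5.85 FPKM, and the linker Nid1 54.2 ± 1.67 FPKM (SD, n = 4 each). Among laminin beta chains Lamb1 averaged 30.5 ± 11.4 FPKM (SD, n = 4). A laminin is assembled from 1 chain of each class, yet none of the 5 alpha chain genes reached 1 FPKM. The highest alpha chain was Lama5 at 0.392 ± 0.288 FPKM (SD, n = 4), and Lama2 was listed at 0 in all libraries.

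Among glycoproteins, matricellular proteins and proteoglycans, 15 of 22 reached 1 FPKM, and several were among the highest genes of the line. Sparc, a collagen-binding matricellular protein, measured 717, 744, 729 and 700.1 FPKM in libraries 0 to 3. Ctgf, a CCN-family protein induced by TGFβ and YAP, measured 739, 692, 691 and 709.8 FPKM, and osteopontin, Spp1, 578, 575, 574 and 631 FPKM. All 3 ranked within the 75 highest genes, with little spread. Cyr61, another CCN-family gene, averaged 438 ± 34.3 FPKM, biglycan, Bgn, 414 ± 24.3 FPKM, Fbln2 316 ± 22.0 FPKM and fibronectin, Fn1, 135 ± 7.80 FPKM (SD, n = 4 each).

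Other matrix glycoproteins were low. Periostin, Postn, a matricellular protein of fibrotic tissue, measured 0.413, 0.720, 0.884 and 1.02 FPKM, with library 3 alone above 1. Mfap5, of the elastic fibre, stood just above the threshold at 1.09 ± 0.363 FPKM (SD, n = 4). Fbn1, Lum and Mgp reached at most 0.588, 0.282 and 0.605 FPKM in any library, and elastin, Eln, and Fbln1 were listed at 0 in all libraries.

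All 19 genes of collagen processing and crosslinking reached 1 FPKM, with a median of 24.5 FPKM. Serpinh1, the collagen chaperone HSP47, measured 1173, 1180.0, 907 and 1157 FPKM and ranked 35. It was lowest in library 2. P4hb, the shared subunit of the collagen prolyl hydroxylases, averaged 667 ± 28.2 FPKM, and the catalytic subunits P4ha1 and P4ha2 68.2 ± 2.72 and 24.5 ± 2.7 FPKM (SD, n = 4 each). Lox, which crosslinks collagen and elastin, averaged 210.5 ± 23.5 FPKM, and Loxl2 13.5 ± 0.919 FPKM (SD, n = 4 each). The lowest member, P4ha3, averaged 1.17 ± 0.289 FPKM (SD, n = 4).

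Of 25 matrix proteases and inhibitors, 17 reached 1 FPKM, and inhibitors were the highest among them. Timp3 measured 586, 705, 676 and 586 FPKM and Timp2 508, 509.7, 523 and 512 FPKM, while Timp1, the inhibitor most often followed in stellate cell activation, measured 17.0, 20.4, 15.3 and 15.5 FPKM. Every library had Timp2 and Timp3 above Timp1. Among metalloproteinases, the membrane-bound Mmp14 averaged 61.5 ± 3.29 FPKM, the gelatinase Mmp2 31.4 ± 3.35 FPKM and the collagenase Mmp13 20.2 ± 2.27 FPKM (SD, n = 4 each). The other gelatinase, Mmp9, was listed at 0, 0, 0.211 and 0.179 FPKM, and Mmp8 and Timp4 at 0 in all libraries.

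The TGFβ pathway was transcribed from ligand to SMAD. Among ligands, Tgfb1 measured 31.2, 30.8, 22.7 and 27.2 FPKM, Tgfb3 averaged 3.90 ± 0.444 FPKM and Tgfb2 2.44 ± 0.336 FPKM (SD, n = 4 each). Inhba, which encodes the subunit of activin A, was higher than each of them in mean, at 39.6 ± 7.6 FPKM (SD, n = 4). Of the receptors, the ligand-binding Tgfbr2 averaged 64.6 ± 2.67 FPKM and its signalling partner Tgfbr1 5.93 ± 0.834 FPKM (SD, n = 4 each). The coreceptors Eng and Tgfbr3 averaged 47.0 ± 13 and 39.9 ± 3.45 FPKM (SD, n = 4 each). Among the integrins that release TGFβ from its latent form, Itgav averaged 62.8 ± 9.04 FPKM and Itgb5 20.3 ± 5.43 FPKM (SD, n = 4 each), while Itgb3, Itgb6 and Itgb8 stayed below 1 FPKM. In all, 17 of 22 ligands, receptors and activators reached 1 FPKM.

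Of 14 SMADs and regulators, 13 reached 1 FPKM. The shared partner Smad4 averaged 49.0 ± 3.63 FPKM, Smad2 19.8 ± 1.51 FPKM and the inhibitory Smad6 and Smad7 14.8 ± 4.38 and 14.6 ± 0.529 FPKM (SD, n = 4 each). Smad3, which carries the TGFβ signal to collagen genes, measured 25.7, 26.1, 24.8 and 23 FPKM in libraries 0 to 3. The SMAD genes other than Smad9 lay between 14.6 and 49.0 FPKM in mean. Smad9 averaged 1.23 ± 0.405 FPKM (SD, n = 4), and the list member below the threshold was Bambi.

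Of 28 growth factors and receptors, 20 reached 1 FPKM, and 1 receptor gene stood above the rest. Axl, a receptor tyrosine kinase, measured 232, 233, 235 and 231 FPKM and hardly varied between libraries. Its ligand gene Gas6 averaged 0.425 ± 0.206 FPKM (SD, n = 4). The vascular growth factor genes Vegfa and Vegfb came next at 53 ± 2.88 and 45.4 ± 7.23 FPKM, followed by the receptor genes Fgfr1, Met and Egfr at 38.5 ± 5.01, 26.4 ± 1.24 and 25.2 ± 8.54 FPKM (SD, n = 4 each). Hgf, the ligand of Met, reached at most 0.141 FPKM in any library, and Igf1 at most 0.850 FPKM. The PDGF ligand genes Pdgfa, Pdgfc and Pdgfb averaged 10.2 ± 2.03, 9.06 ± 0.780 and 7.12 ± 0.393 FPKM (SD, n = 4 each). Kit, Fgfr4 and Ntrk3 were listed at 0 in all libraries.

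Among innate sensors at the membrane, the TLR4 complex was transcribed. Tlr4 (mm10 chr4:66827584-66930284) measured 9.03, 12.7, 13.6 and 7.94 FPKM in libraries 0 to 3, higher in libraries 1 and 2 than in libraries 0 and 3. Since the line is described as deleted for Tlr4 and given the WT gene, reads of the added gene and of any remaining transcript of the deleted one cannot be told apart here. Ly96, which encodes MD-2, measured 1.10, 1.64, 2.20 and 5.51 FPKM, with library 3 far above the others. Cd14 averaged 17.6 ± 1.83 FPKM (SD, n = 4), and Lbp, the carrier protein for lipopolysaccharide, reached at most 0.341 FPKM in any library. Of 25 receptors and adaptors, 12 (48.0%) reached 1 FPKM, beside 50.8% of all protein-coding genes.

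Apart from Tlr4, the only Toll-like receptor gene at 1 FPKM or more was Tlr3, which senses double-stranded RNA, at 7.81, 9.82, 12.3 and 9.49 FPKM. Tlr1 measured 1.15, 0.211, 0.724 and 0.401 FPKM and Tlr2 was listed at 0.0762, 0, 0 and 0 FPKM. Tlr5, Tlr8, Tlr9, Tlr11 and Tlr12 were listed at 0 in all libraries. The adaptors Myd88, Tirap and Ticam1 averaged 50.6 ± 17.2, 13.4 ± 1.65 and 8.47 ± 1.84 FPKM (SD, n = 4 each). The bridging adaptor of the TRIF arm, Ticam2, measured 0, 0, 0.0800 and 0 FPKM.

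Cytosolic sensors of nucleic acid were broadly transcribed, with 15 of 20 at 1 FPKM or more. The RNA helicase gene Ddx58, for RIG-I, averaged 49.7 ± 4.03 FPKM, Ifih1, for MDA5, 27.7 ± 1.90 FPKM and Dhx58 30.4 ± 2.29 FPKM (SD, n = 4 each). The DNA sensors Aim2 and Mb21d1, for cGAS, averaged 44.1 ± 6.09 and 3.84 ± 0.735 FPKM, and the adaptor of cGAS, Tmem173, for STING, 22.3 ± 2.86 FPKM (SD, n = 4 each). Mavs, the adaptor that RIG-I and MDA5 need, was listed at 0 in all 4 libraries, although none of its 50-base windows occurs in another gene. The inflammasome genes Casp1, Pycard and Nlrp3 reached at most 0.305, 0.186 and 0.0588 FPKM in any library, while Gsdmd, the pore protein that inflammatory caspases cut, averaged 16.6 ± 1.86 FPKM and Casp4 8.27 ± 1.44 FPKM (SD, n = 4 each).

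Interferon genes themselves were at or near 0. Of 18 interferons and receptors, 5 (27.8%) reached 1 FPKM, beside 31.0% of all genes and 50.8% of all protein-coding genes. These 5 were all receptor chains, and 10 genes of the list were listed at 0 in all libraries. Ifnb1, interferon beta, was listed at 0, 0.738, 0 and 0.827 FPKM in libraries 0 to 3, so it was seen in libraries 1 and 3 only. Ifnz was listed at 0.484, 0, 0 and 0.244 FPKM. The measured interferon alpha genes, Ifng, Ifne, Ifnk and both interferon lambda genes (Il28a and Il28b) were listed at 0.

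The receptors for type I and type II interferon were transcribed at like levels. Ifnar1 and Ifnar2 averaged 22.1 ± 1.59 and 21.4 ± 3.26 FPKM, and Ifngr1 and Ifngr2 27.3 ± 1.78 and 30.7 ± 3.68 FPKM (SD, n = 4 each). The lambda receptor chain gene Il28ra averaged 0.785 ± 0.294 FPKM (SD, n = 4), beside 15.4 ± 1.23 FPKM (SD, n = 4) for Il10rb, its partner chain. Downstream, 14 of 16 signal transduction genes reached 1 FPKM. Irf7, the factor that amplifies interferon alpha transcription and is itself interferon-induced, measured 137, 135, 127 and 158 FPKM, and Irf9 and Stat2 averaged 49.4 ± 5.42 and 39.5 ± 1.45 FPKM (SD, n = 4 each). The negative regulators Usp18, Socs3 and Socs1 averaged 24.3 ± 0.973, 26.4 ± 3.26 and 11 ± 3.71 FPKM (SD, n = 4 each). Irf8, a factor of myeloid cells, reached at most 0.0913 FPKM in any library.

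Interferon-stimulated effectors were well transcribed in these untreated cells, which carry the empty vector. Whether the vector has a part in their levels was not tested. Of 40 measured, 38 reached 1 FPKM, 29 reached 10 FPKM and 11 reached 100 FPKM, with a median of 28.8 FPKM. Of all 38277 genes, 7081 reached 10 FPKM. Of all 21172 protein-coding genes, 10762 reached 1 FPKM, 6792 reached 10 FPKM and 831 reached 100 FPKM. Isg15, the ubiquitin-like modifier (mm10 chr4:156199424-156200818), measured 1100.5, 1186, 946 and 1115 FPKM and ranked 37. It was lowest in library 2, as were Ifitm3 and Bst2, the tetherin gene that holds budding virus at the membrane, at 690.2, 748, 523 and 736 FPKM.

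The levels within the effector list spanned a wide range. Ifitm2 averaged 489.6 ± 54.0 FPKM, the translation inhibitor gene Ifit1 233 ± 17.9 FPKM and the oligoadenylate synthetase-like genes Oasl1 and Oasl2 219 ± 25.7 and 211 ± 4.97 FPKM (SD, n = 4 each). The immunity-related GTPase genes Irgm1 and Igtp averaged 134 ± 5.69 and 45.7 ± 3.59 FPKM, and Rsad2, for viperin, 53.2 ± 8.57 FPKM (SD, n = 4 each). Ifit3 averaged 118 ± 6.65 FPKM (SD, n = 4), a level that is uncertain because its near-identical copy Ifit3b, listed as I830012O16Rik, can share its reads. Among the lowest of those that reached 1 FPKM was Mx1, a dynamin-like antiviral GTPase, at 3.37, 3.12, 2.21 and 2.49 FPKM. Ifitm1 measured 0.784, 0, 0 and 0 FPKM, so the members of this small gene family differed from each other by orders of magnitude.

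**Figure D5:**
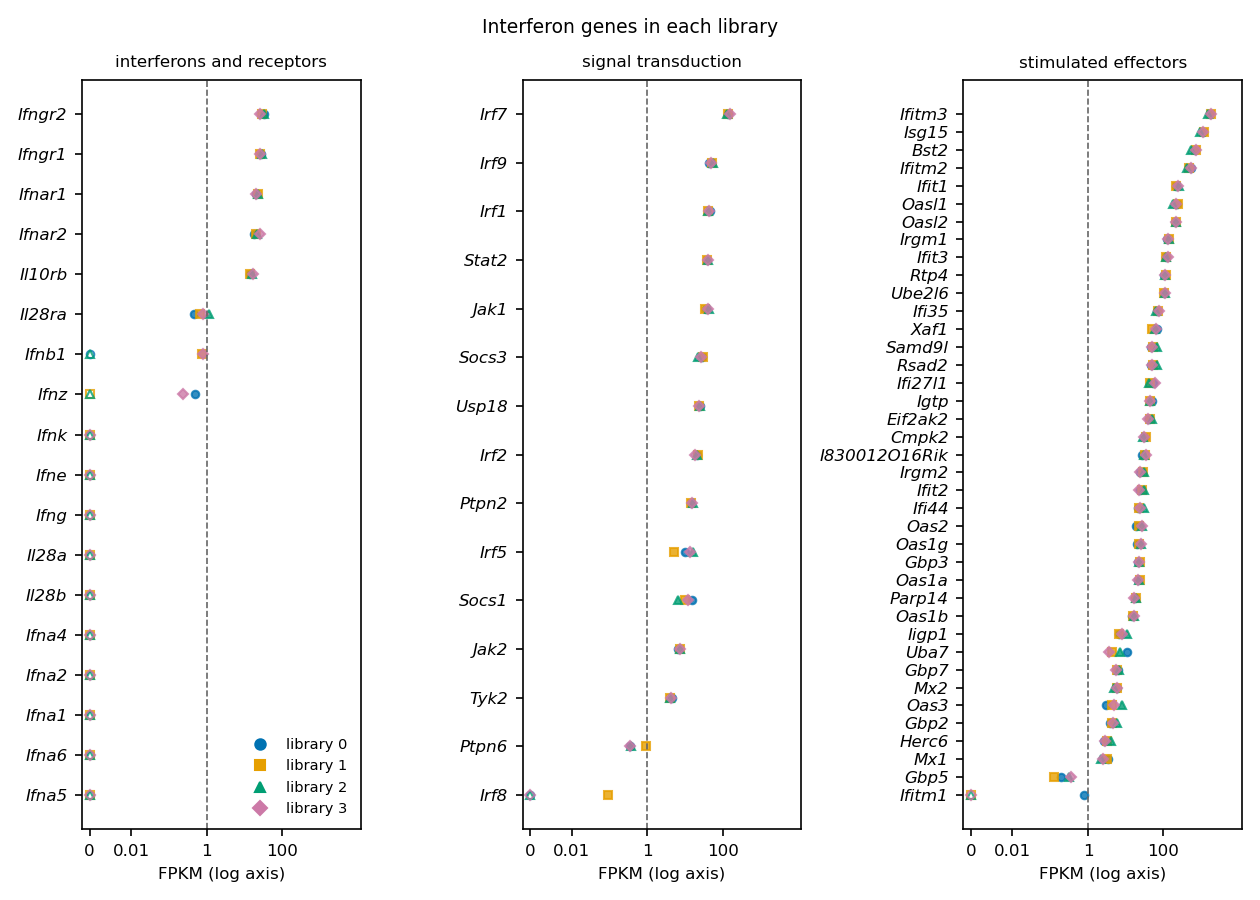
FPKM in each library (log axis, with 0 drawn at the left edge) for interferons and their receptors, signal transduction genes and interferon-stimulated effectors, each ordered by mean, with a dashed line at 1 FPKM; 2 members are not shown. Ifnb1 is above 0 in libraries 1 and 3 only, Ifnar1 averages 22.1 FPKM, and Ifitm3 and Isg15 stand at 946 FPKM or more in every library.

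The regions upstream of these genes were searched for the ISRE. In the 250 bases before the start, the ISRE letters, TTTC followed by any 2 bases and TTTC, searched on both strands and counting overlapping matches, occurred for 17 of 31 effector genes that have an entry in the RefSeq promoter table (51.5% of their 33 promoters). Over all 32851 promoters of the table the share was 2.98%, and over the 841 promoters of genes at 100 FPKM or more it was 3.57%. Such a match is a description of letters and not a measured binding site. Isg15 is not the highest effector gene by level, and the highest, Ifitm3, had no ISRE match in its window. The 250 bases upstream of Cxcl10, the most abundant chemokine gene of the line, and of the chosen effector gene Isg15 are shown. They are given 5′ to 3′ on the strand of the gene, from RefSeq on GRCm38.p6, at chr5:92348890-92349139 and chr4:156200819-156201068, both on the minus strand, with matches to the ISRE, the kB site or the CArG box in capitals.
Cxcl10: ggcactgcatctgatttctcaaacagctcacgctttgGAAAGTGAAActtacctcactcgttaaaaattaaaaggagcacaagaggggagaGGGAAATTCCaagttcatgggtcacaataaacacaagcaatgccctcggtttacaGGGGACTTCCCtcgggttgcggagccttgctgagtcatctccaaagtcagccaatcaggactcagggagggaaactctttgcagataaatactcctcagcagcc
Isg15: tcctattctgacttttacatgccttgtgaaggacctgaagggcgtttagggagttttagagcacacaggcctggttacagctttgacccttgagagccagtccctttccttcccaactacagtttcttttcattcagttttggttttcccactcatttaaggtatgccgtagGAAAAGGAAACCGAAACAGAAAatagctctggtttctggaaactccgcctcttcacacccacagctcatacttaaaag

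The Cxcl10 window holds an ISRE match 203 bases before the start as well as matches to the kB site, which NF-kB binds. The kB site occurred in 7.25% of all promoters. In the Isg15 window 3 ISRE matches lie 56, 62 and 68 bases before the start, and each overlaps its neighbour. The window before Acta2 held no exact match to the ISRE, the kB site or the CArG box. The CArG box is the motif that serum response factor binds, and its letters occurred in 1.47% of all promoters. Only fixed patterns were searched, so a site with a substituted base would be missed. The lack of a match before Acta2 therefore does not show that it has no CArG box. For 5 further effectors, the match nearest to the start is shown with its flanks of 10 bases, to show how far the letters outside the motif differ. Each is written on the strand on which the motif reads TTTC at both ends, with the motif in capitals.
Bst2, chr8:71537577-71537606: aactgcagccTTTCAGTTTCattttcctgg
Ifitm2, chr7:140955988-140956017: tctctagcaaTTTCCTTTTCctgttggtgg
Ifit1, chr19:34640794-34640823: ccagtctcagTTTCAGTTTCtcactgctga
Irgm1, chr11:48871425-48871454: tgagaatcagTTTCGGTTTCtatttcttga
Rsad2, chr12:26456553-26456582: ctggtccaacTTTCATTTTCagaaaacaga

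These 5 genes ranged from 674 FPKM for Bst2 to 53.2 FPKM for Rsad2, and each window differs from the others outside the fixed letters. The motif lies 14 bases before the start in Irgm1 and 114 bases before it in Bst2. Ifitm3, Oasl1, Oasl2 and Cmpk2, among other effectors, had no ISRE match in this window, so the letters are not shared by the whole list.

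Genes of MHC class I presentation were high and those of class II were near 0. B2m, the invariant light chain of class I, measured 1091, 1054, 1257 and 1209.7 FPKM and ranked 34. The heavy chain genes H2-K1 and H2-D1 averaged 373 ± 42.6 and 304 ± 22.6 FPKM (SD, n = 4 each), with 8.11% and 14.3% of their windows found in another gene. Class I genes form a family of close copies, so these levels carry some uncertainty. Tapbp, which loads peptide, averaged 176 ± 14.6 FPKM, the peptide transporter genes Tap1 and Tap2 23.1 ± 3.04 and 6.70 ± 1.29 FPKM and their regulator Nlrc5 7.53 ± 0.657 FPKM (SD, n = 4 each). The immunoproteasome genes were lower, with Psmb9 and Psmb10 at 4.37 ± 1.28 and 4.31 ± 1.13 FPKM and Psmb8 at 0.745 ± 0.138 FPKM (SD, n = 4 each). The class II genes H2-Ab1 and H2-Eb1 reached at most 0.569 and 1.0 FPKM in any library, H2-Aa was listed at 0, and the class II regulator Ciita reached at most 0.0893 FPKM.

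The transcribed chemokine genes differed by orders of magnitude. Of 14 CC chemokines, 4 (28.6%) reached 1 FPKM, beside 31.0% of all genes and 50.8% of all protein-coding genes. Ccl5, which attracts T cells and monocytes, measured 205, 191, 216 and 216 FPKM, the monocyte attractants Ccl2 and Ccl7 59.4, 53.7, 51.0 and 42.9 FPKM and 20.8, 18.1, 21.7 and 20.2 FPKM, and Ccl9 3.78, 0.921, 3.61 and 1.48 FPKM. Ccl2 was lowest in library 3 and Ccl9 was spread widely. Of 14 CXC and CX3C chemokines, 4 (28.6%) reached 1 FPKM, again below the share of all protein-coding genes. Beside Cxcl10 these were Cxcl12, the homeostatic ligand of CXCR4, at 14.2 ± 1.72 FPKM, Cxcl16 at 2.46 ± 1.14 FPKM and the neutrophil attractant Cxcl1 at 1.33 ± 1.04 FPKM (SD, n = 4 each). Cxcl9 and Cxcl11, the other ligands of CXCR3, reached at most 0.0664 and 0.254 FPKM in any library, and Cxcl2 and Cxcl5 were listed at 0.

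Receptors for chemokines were mostly near or at 0, with 1 of 16 at 1 FPKM or more. That member was Cxcr7, the scavenging receptor for CXCL12, at 17.6, 19.8, 21.2 and 21.4 FPKM. Cxcr4, Cxcr3 and Ccr2 were listed at 0 in all libraries.

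Of 21 cytokines and adhesion genes, 6 (28.6%) reached 1 FPKM, beside 31.0% of all genes and 50.8% of all protein-coding genes. Csf1, the growth factor of macrophages, measured 194, 205, 203 and 189.9 FPKM, and the leukocyte adhesion gene Vcam1 166, 178, 201 and 165 FPKM. Ptgs2, for the inducible cyclooxygenase, averaged 77.7 ± 9.58 FPKM, Lif 45.5 ± 5.25 FPKM, Il33 5.28 ± 0.675 FPKM and Il15 2.94 ± 1.24 FPKM (SD, n = 4 each). Il6, a cytokine of activated stellate cells, lay just below the threshold at 0.361, 0.689, 1.61 and 0.999 FPKM in libraries 0 to 3, highest in library 2. Tslp averaged 0.942 ± 0.416 FPKM, Icam1 0.492 ± 0.325 FPKM and Il11 0.651 ± 0.391 FPKM (SD, n = 4 each). Il1b reached at most 0.417 FPKM in any library, and Tnf and Il12b were listed at 0 in all libraries.

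Among complement genes, 7 of 14 reached 1 FPKM, led by the proteases C1s and C1ra at 14.0 ± 2.36 and 11.6 ± 1.86 FPKM (SD, n = 4 each). The central component C3 averaged 0.799 ± 0.382 FPKM and the alternative pathway protease gene Cfb 1.10 ± 0.590 FPKM (SD, n = 4 each). For Cfb, 81.4% of the windows occur in another gene. All 14 genes of the NF-kB list reached 1 FPKM. The subunit genes Rela and Nfkb1 averaged 68.6 ± 4.41 and 24.4 ± 2.48 FPKM, Rel 1.71 ± 0.488 FPKM, and the feedback inhibitors Tnfaip3 and Nfkbia 28.6 ± 4.21 and 6.12 ± 0.429 FPKM (SD, n = 4 each).

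The cells carried the transcripts of dividing cells together with those of p53 and of cell cycle inhibitors. All 24 cell cycle genes reached 1 FPKM, with a median of 71.4 FPKM. Pcna and Cdk4 averaged 216 ± 13.9 and 207 ± 15.2 FPKM, Top2a 157 ± 9.26 FPKM, Ccnd1 148 ± 6.60 FPKM and the proliferation marker Mki67 39.8 ± 3.89 FPKM (SD, n = 4 each). The lowest was the retinoblastoma gene Rb1, at 6.11 ± 1.92 FPKM (SD, n = 4). Cdkn2a, whose transcripts encode p16INK4a and p19ARF, measured 451, 448, 326 and 459 FPKM and ranked 131, lowest in library 2. The gene-level value does not separate the 2 products.

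Of 9 genes of the p53 and inhibitor list, 8 reached 1 FPKM. Trp53 averaged 118 ± 6.33 FPKM, and its targets Cdkn1a, for p21, and Mdm2, which degrades p53, 217 ± 14.9 and 237 ± 10.8 FPKM (SD, n = 4 each). Cdkn2b, Cdkn2c, Cdkn2d and Cdkn1b averaged 30.7 to 60.4 FPKM, and Cdkn1c was listed at 0 in all libraries.

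Of 35 transcription factors, 32 reached 1 FPKM. Id1, an inhibitor of basic helix-loop-helix factors, averaged 239 ± 31.2 FPKM, Myc 214 ± 18.2 FPKM, Klf4 156 ± 12.3 FPKM and the AP-1 genes Junb and Jun 142 ± 28.2 and 133 ± 26.7 FPKM (SD, n = 4 each). The Hippo pathway effectors Yap1 and Wwtr1 averaged 103 ± 4.20 and 37.3 ± 5.17 FPKM, and the mesenchymal factors Twist2, Twist1, Snai2 and Prrx1 93.0 ± 5.47, 54.2 ± 4.03, 31.0 ± 3.86 and 21.3 ± 4.19 FPKM (SD, n = 4 each). Members below 1 FPKM were Lhx2 and Sox9, with Tcf21 at 0.

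Lipid synthesis genes were transcribed while Lrat, of retinoid storage, was listed at 0. Of 24 genes of this list, 13 (54.2%) reached 1 FPKM, beside 50.8% of all protein-coding genes. The desaturase genes Scd2 and Scd1 averaged 438 ± 21.6 and 113 ± 11 FPKM, fatty acid synthase, Fasn, 169 ± 17.9 FPKM and the sterol-regulated gene Insig1 70.6 ± 4.26 FPKM (SD, n = 4 each). Aldh1a1, which makes retinoic acid, averaged 55.7 ± 1.2 FPKM, and the retinoic acid receptor genes Rarg and Rara 72.8 ± 7.19 and 25.8 ± 3.63 FPKM (SD, n = 4 each). Rarb reached at most 0.137 FPKM in any library, Stra6, the retinol uptake receptor, at most 0.289 FPKM, and Aldh1a2 and Crabp1 were listed at 0. Rbp4, the plasma carrier, measured 0.709, 1.04, 0.265 and 1.51 FPKM.

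Several mesothelial markers were transcribed. The liver's mesothelium covers its surface and can give rise to stellate cells in the mouse embryo. Upk3b, a uroplakin of mesothelium, measured 118, 123, 117 and 122 FPKM in libraries 0 to 3, and Msln, mesothelin, 60.7, 64.6, 65.6 and 70.2 FPKM. Upk1b averaged 39.8 ± 4.58 FPKM, Gpm6a 17.8 ± 3.34 FPKM and the mesothelial transcription factor Wt1 3.13 ± 0.911 FPKM (SD, n = 4 each). All of these were higher in mean than Des and Pdgfrb but lower than Vim and Plin2, which are also in the stellate list. Neither group of markers thus stood above the other as a whole. Muc16, another mesothelial marker, was listed at 0 in all libraries. The portal fibroblast genes gave no single picture, with Fbln2 at 316 ± 22.0 FPKM and Cd34 at 186 ± 3.44 FPKM (SD, n = 4 each), while Thy1, Entpd2 and Eln were listed at 0 in all libraries. In all, 10 of 16 genes of this list reached 1 FPKM.

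Keratins, which mark mesothelium and bile duct cells, were low. Krt19 averaged 6.81 ± 1.79 FPKM and Krt7 1.57 ± 1.0 FPKM (SD, n = 4 each). Krt8 measured 0.681, 1.47, 0.732 and 0.537 FPKM and its usual partner Krt18 was listed at 0, 0.198, 0.157 and 0 FPKM. Of the cholangiocyte list, Krt19 and Krt7 were the 2 of 6 members at 1 FPKM or more, and Epcam was listed at 0.

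Most markers of the other liver cells were below 1 FPKM, with 3 macrophage genes and 1 endothelial gene above it. Of all genes in the table, 31.0% reached it, and of all protein-coding genes 50.8% did. Of 8 hepatocyte genes none reached 1 FPKM, the highest by mean was Apoa1 at 0.636, 0, 0.237 and 0 FPKM in libraries 0 to 3, and Alb, Ttr and Hnf4a were listed at 0 in all libraries. Of 9 macrophage genes, Cd68, Csf1r and Lyz2 reached 1 FPKM, at 5.51 ± 0.438, 3.88 ± 0.483 and 1.74 ± 0.672 FPKM (SD, n = 4 each), while Ptprc, the leukocyte common antigen, reached at most 0.0322 FPKM in any library and C1qa and Marco were listed at 0. Lyve1, at 1.40 ± 0.505 FPKM (SD, n = 4), was the 1 of 8 endothelial genes at 1 FPKM or more, and Cdh5 and Pecam1 averaged 0.277 and 0.184 FPKM. None of 8 lymphocyte and neutrophil genes reached 1 FPKM. Of the sex-linked genes, Xist was listed at 0.0101, 0, 0 and 0 FPKM, and the Y-linked Kdm5d, Uty, Ddx3y and Eif2s3y at 0 in all libraries.

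Exportin-4, the protein at the centre of the series, was transcribed at a moderate level. Xpo4 (mm10 chr14:57577521-57665430) measured 6.83, 9.33, 8.18 and 6.09 FPKM in libraries 0 to 3 and ranked 7935. The export receptors Xpo6, Xpot, Cse1l and Xpo1 averaged 140.3 ± 11.7, 39.1 ± 2.01, 26.1 ± 2.61 and 23.7 ± 3.34 FPKM, and Xpo5 and Xpo7 5.08 ± 1.0 and 5.06 ± 0.318 FPKM (SD, n = 4 each). Among export receptors Xpo4 thus stood with Xpo5 and Xpo7 in the lower group. Of its known cargo, Eif5a, a translation elongation factor, measured 1356, 1349, 1223 and 1358 FPKM and ranked 29, and Eif5a2 averaged 7.75 ± 1.72 FPKM (SD, n = 4). Sox2 and Sry, also carried by exportin-4 in other cells, were listed at 0 in all libraries.

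Calcium-binding S100 proteins and annexins were abundant, with 13 of 14 at 1 FPKM or more. S100a6 averaged 907 ± 96.5 FPKM, S100a10 529 ± 57.8 FPKM and S100a4, often used to mark fibroblasts, 531 ± 46.4 FPKM (SD, n = 4 each). The annexin genes Anxa1, Anxa2, Anxa3 and Anxa5 averaged 199 ± 12.4, 156 ± 22.0, 119.9 ± 10.5 and 94.6 ± 9.77 FPKM (SD, n = 4 each). The member below the threshold was the glial gene S100b.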

How the data were processed

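Poly(A)-selected RNA was made into strand-specific (dUTP) libraries, per the labels' protocols. The deposited values are FPKM computed by the authors from aligned reads. The tools named in the submitters' processing notes are CASAVA 1.8.2 and STAR 2.7.2b, and 2 genome builds, GRCh38 and mm10, are named there without a role. Which program gave the FPKM, and how it treated reads that fit several genes, is not given in these sources. That treatment would lower or raise genes with near copies, and short transcripts are less certain than long ones. Each library totals 485449 to 508287 FPKM in unrounded values, as a length-scaled unit would, and the depth in reads is unknown.

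The 4 untreated empty-vector columns of the baseline table were used, and the 3 columns of the other untreated group in it were not. Mean, SD, coefficient of variation and rank were computed over the 4 libraries with no filter, with Python 3.11.15, pandas 2.3.3 and numpy 2.4.6, and figures were drawn with matplotlib 3.10.9. A threshold of 1 FPKM was used for counts. No test was run, since no contrast was made. The ranking and counting steps were tested on simulated data. Positions, biotypes, exon lengths and transcripts are from GENCODE M21 (mm10), which holds 36342 of the 38277 identifiers. Of 622 genes in 36 lists, 620 were matched once by symbol, and 2, Ccl25 and Tead1, are listed more than once and were left out. The identifiers of the genes listed as Gbp5 and Rpl24 carry another symbol in GENCODE M21 (Gbp2b and Zbtb11).

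Named genes were the 20 highest, Acta2, Col1a1, Isg15, Cxcl10, Xpo4, Tlr4, Tgfb1, Smad3 and Eif5a. From each list the rule took the highest members, those just above and below the threshold and defining members below it. From the 100 highest it allowed any gene that no list holds. A few genes that the rule names are not reported here, though they remain in the counts. The libraries, the lists and this rule were chosen with earlier results of these data known. Alternatives were thresholds of 0.5 and 5 FPKM, no threshold, the threshold in every library, the TPM scale, medians, pairs of libraries, each library left out, and ranks without mitochondrial or ribosomal genes.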

Additional observations from a re-analysis of the deposited data

Results flagged for a closer look

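Of 294 genes whose values are given, 36 had 1 library far from the other 3, by a ratio of its gap to the whole range above Dixon's critical value for 4 samples. Chance alone singles out about 1 in 20 such groups. In all 9 genes where the odd library was the lowest it was library 2, the library whose levels shift with transcript length, and 18 of the 27 others are genes listed at 0 in 3 of the 4 libraries. The part of transcript length in these values was not tested.

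In library 2 Eif5a stood lowest at 1223 FPKM, Ifitm3 at 1534 FPKM, Pkm at 1182 FPKM, Serpinh1 at 907 FPKM and Mif at 767 FPKM. The same library was lowest for Cdkn2a at 326 FPKM, Col4a1 at 78.2 FPKM, Col6a2 at 48.8 FPKM and Cxcl9 at 0 FPKM. It was the highest for Ddx58 at 55.7 FPKM and Mki67 at 45.6 FPKM. Library 0 was the highest for Tmsb4x at 2209 FPKM. Library 1 was the highest for Lamb1 at 47.6 FPKM and Col2a1 at 0.845 FPKM. Library 3 was the highest for Spp1 at 631 FPKM, Plin2 at 168 FPKM, Smad6 at 21.3 FPKM and P4ha3 at 1.60 FPKM.

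The genes listed at 0 in the other 3 libraries were low, apart from the mitochondrial gene mt-Atp8 at 38.2 FPKM in library 0, and the ribosomal gene Rpl36 was among them. In library 0 these were Rpl36 at 1.54, Ifitm1 at 0.784, H2-Ab1 at 0.569, Rarb at 0.137, Ciita at 0.0893, Tlr2 at 0.0762, Nlrp3 at 0.0588, Ptprc at 0.0322 and Xist at 0.0101 FPKM. In library 1 they were Mgp at 0.605, Il1b at 0.417 and Irf8 at 0.0913 FPKM. In library 2 they were Hgf at 0.141, Ticam2 at 0.0800, Myocd at 0.0761 and Myh11 at 0.0274 FPKM, and in library 3 Lbp at 0.341 FPKM. The low values come from few fragments, and how many is unknown without counts.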

How the results depend on the processing

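Depth is unknown, so levels near 1 FPKM and listed zeros limit what can be said of low genes, and no interval covers counting error. The number of genes at the threshold was 11877 as reported, 12935 at 0.5 FPKM, 9049 at 5 FPKM, 17538 for any value above 0, 11046 with 1 FPKM in every library, 12944 on the TPM scale, and 11861 to 11876 with each library left out. With each library left out, 19 to 20 of the 20 highest and 99 of the 100 highest genes were kept, and the 100 highest genes held 25.6% to 26.0% of the summed FPKM. Without mitochondrially encoded genes that share was 23.6%.

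List counts moved most when any value above 0 was counted. They became 22 for stellate identity, 12 for other collagens, 20 for the basement membrane, 20 for Toll-like receptors, 8 for interferons and receptors, 8 for CC chemokines, 8 for CXC and CX3C chemokines, 8 for chemokine receptors, 19 for cytokines, 11 for complement, 20 for retinoid and lipid handling, 3 for hepatocyte, 4 for cholangiocyte, 6 for macrophage, 7 for endothelial, 1 for lymphocyte and neutrophil and 1 for sex-linked genes. At 5 FPKM they became 4 for other collagens, 12 for growth factors, 2 for CXC and CX3C chemokines, 2 for complement, 1 for cholangiocyte, 1 for macrophage and 0 for endothelial genes. At 0.5 FPKM, and on the TPM scale, 11 cytokine genes were counted. The cholangiocyte count was 1 with 1 FPKM in every library and 1 in replicates 2 and 3 alone. On the TPM scale, which sets each library to the same total, Acta2 stood at 39.7, Col1a1 at 199, Isg15 at 2181 and Cxcl10 at 4108. The other list counts stayed within 1.5 times under these alternatives, and all 36 did with medians and with each library left out. No paired analysis was possible because no groups were compared and no result comes from a test.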

Other observations

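Some protein folding, tubulin and glycolytic genes that no list holds also stood among the 100 highest, and those named here were chosen after their values were seen. The cytosolic chaperone genes Hspa8 and Hsp90aa1 averaged 1359 ± 99.1 and 567 ± 49.4 FPKM, the mitochondrial chaperonin Hspd1 705 ± 68.9 FPKM and the endoplasmic reticulum chaperones Calr and Hspa5 772 ± 9.25 and 551 ± 16.1 FPKM (SD, n = 4 each). Calr varied little between libraries and was the 1 gene of the 100 whose libraries were all above those of its lower neighbour, H3f3b, which encodes histone H3.3. The tubulin genes Tubb5 and Tuba1a averaged 1282 ± 46.0 and 813 ± 21.7 FPKM (SD, n = 4 each). The glycolytic genes Eno1 and Aldoa averaged 555 ± 71.7 and 518 ± 37.6 FPKM (SD, n = 4 each). Other genes hold 72.9% of the 50-base windows of Tuba1a and 72.2% of those of Eno1, so these levels are uncertain.

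Surface and nuclear envelope genes were also among the 100. Tnfrsf12a, the receptor for the cytokine TWEAK, averaged 513 ± 44.4 FPKM, and Ptrf, for the caveolar coat protein cavin-1, 712 ± 78.6 FPKM (SD, n = 4 each). Basigin, Bsg, a glycoprotein that induces matrix metalloproteinases, averaged 776 ± 57.8 FPKM, and Lmna, for lamin A and C, 552 ± 63.7 FPKM (SD, n = 4 each). Of these 4 genes, each was lowest in library 2.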
